A study of Mus musculus with 27 samples.

Results

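The 7 neutrophil genes described here were S100a8, S100a9, Csf3r, Cxcr2, Retnlg, Mmp8 and Itgam, taken by symbol from the 19392 genes of the expression table. The RNA came from the left kidney of 27 C57BL/6 mice, 3 for each of 9 lengths of ischemia. The paper describes excision of the right kidney and clamping of the left renal pedicle for 0, 16, 18, 20, 22, 24, 26, 28 or 30 min on a warmed platform. The 0 min mice are labelled sham, and the sources used here do not state outright whether their right kidney was excised. The kidneys were taken after 24 h of reperfusion. The sources used here give neither the sex nor the age of the mice. Values are FPKM (read fragments per kilobase of a transcript and per unit of mapped reads), so levels can be set side by side between genes. All 7 genes passed the filter on low values, a level above 0 in 3 or more kidneys, which left 18188 genes for the tests. All 8 kidney markers listed were above 0 in every library, with Slc34a1 (the proximal tubule phosphate transporter) between 411 and 2416 FPKM and Umod (uromodulin) between 454 and 2276 FPKM over the 27 kidneys, and the podocyte gene Nphs1, the lowest, between 1.98 and 6.46 FPKM.

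Neutrophils are short-lived phagocytes of the blood that enter injured tissue within hours. They leave the bone marrow under granulocyte colony-stimulating factor, follow CXC chemokines to the vessel wall, cross it with beta-2 integrins, and carry granules of proteases and antimicrobial proteins. After renal ischemia and reperfusion they gather in the outer medulla, and a healthy kidney holds few of them. S100a8 and S100a9 encode the subunits of calprotectin, the main cytosolic protein of neutrophils. Csf3r encodes the receptor of granulocyte colony-stimulating factor, and Cxcr2 the receptor of CXCL1, CXCL2 and related chemokines. Retnlg encodes resistin-like gamma, a secreted protein of mature mouse neutrophils, and Mmp8 the collagenase of neutrophil granules. Itgam encodes CD11b, a beta-2 integrin subunit that monocytes and macrophages carry as well.

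The 7 genes did not follow ischemia time alike. S100a8, S100a9, Csf3r and Cxcr2 were low from 16 to 26 min, with no slope that passed the test, and were higher at 28 and 30 min, Retnlg and Mmp8 were highest at 30 min, and Itgam was already higher than sham at 16 to 26 min. The calprotectin genes reached the highest levels, with means of 7.94 ± 3.68 FPKM for S100a8 and 9.77 ± 2.81 FPKM for S100a9 at 30 min (SD, n = 3), where Mmp8 was at 0.590 ± 0.331 FPKM. The mean over the 27 kidneys ran from 3.33 FPKM for S100a9, which ranked 10075 of 19392 genes, to 0.151 FPKM for Mmp8. In whole kidney RNA, fewer cells of a type and less RNA per cell cannot be told apart.

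The 250 bases before a RefSeq transcript start of 4 genes are shown, written 5′ to 3′ on the strand of the gene (build GRCm38.p6). Capitals mark TATAAA (the TATA box) and GAGGAAG (the core of sites bound by PU.1, a transcription factor of myeloid cells) on either strand, so that CTTCCTC is GAGGAAG on the opposite strand. S100a8 lies on chromosome 3 at 90669071 to 90670034, and its window at chr3:90668821-90669070 on the plus strand. S100a9 lies on the same chromosome at 90692630 to 90695721, with its window at chr3:90695722-90695971 on the minus strand. The 2 genes are thus 22595 bases apart, with 0 RefSeq genes between them. The window of Csf3r is at chr4:126024409-126024658 and that of Itgam at chr7:128062390-128062639, both on the plus strand. The start used for Csf3r lies inside the gene as RefSeq annotates it, which begins at chromosome 4 base 126023441, so its window follows the first base of the gene.
S100a8: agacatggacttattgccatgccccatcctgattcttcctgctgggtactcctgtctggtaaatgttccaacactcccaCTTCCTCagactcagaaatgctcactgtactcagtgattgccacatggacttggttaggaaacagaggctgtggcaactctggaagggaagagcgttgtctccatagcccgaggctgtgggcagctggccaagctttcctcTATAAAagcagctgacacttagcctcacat
S100a9: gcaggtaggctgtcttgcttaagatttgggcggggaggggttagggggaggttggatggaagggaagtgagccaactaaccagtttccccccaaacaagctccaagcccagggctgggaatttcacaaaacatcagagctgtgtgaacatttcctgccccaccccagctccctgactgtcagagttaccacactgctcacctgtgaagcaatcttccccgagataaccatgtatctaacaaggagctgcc
Csf3r: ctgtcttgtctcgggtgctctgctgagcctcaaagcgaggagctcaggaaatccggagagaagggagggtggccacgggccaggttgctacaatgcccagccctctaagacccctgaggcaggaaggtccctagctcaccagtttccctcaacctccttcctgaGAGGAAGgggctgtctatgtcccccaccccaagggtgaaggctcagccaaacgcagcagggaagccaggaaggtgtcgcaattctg
Itgam: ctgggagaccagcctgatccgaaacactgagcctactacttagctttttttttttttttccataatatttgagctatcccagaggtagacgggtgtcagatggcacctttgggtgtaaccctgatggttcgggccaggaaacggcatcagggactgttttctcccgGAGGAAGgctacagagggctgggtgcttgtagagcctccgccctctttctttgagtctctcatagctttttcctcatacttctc

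TATAAA was present in the window of 1 of the 7 genes, S100a8, at bases 30 to 25 before the start, and in 12.4% of 32851 RefSeq windows of the same length. GAGGAAG was present in 4 of the 7, S100a8, Csf3r, Mmp8 and Itgam, against 10.6% of all windows. In Csf3r it lay 86 to 80 bases before the start and in Itgam 84 to 78 bases before it, on the strand of the gene in both. TTNNGCAA, a C/EBP pattern, was present in S100a9, Retnlg and Mmp8 and in 9.56% of all windows. TTCNNNGAA, a STAT pattern, and GGGNNTTCC, an NF-kB pattern, were in 0 of the 7 windows and in 7.02% and 4.98% of all windows. Both strands were searched and overlaps between motifs were allowed. These are matches of letters, and binding was not measured.

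S100a8 was at 0.55, 3.37 and 3.17 FPKM in the 3 sham kidneys. At 16 to 26 min its 18 kidneys ran from 0.17 to 3.33 FPKM with a median of 1.38. At 28 min it was at 6.09, 5.08 and 3.26 FPKM, and at 30 min at 5.19, 12.12 and 6.50 FPKM. All kidneys but 1 at 28 and 30 min lay above every kidney from 16 to 26 min, and sham replicate 1 stood below the other sham kidneys. S100a9 was at 1.46, 3.08 and 3.94 FPKM in sham. Its 18 kidneys from 16 to 26 min ran from 0.77 to 4.30 FPKM with a median of 1.58. At 28 min it was at 7.42, 5.21 and 5.89 FPKM, and at 30 min at 12.53, 9.85 and 6.92 FPKM. The late kidneys did not overlap those of 16 to 26 min or sham, and the sham kidneys lay within the range of 16 to 26 min.

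**Figure D1:**
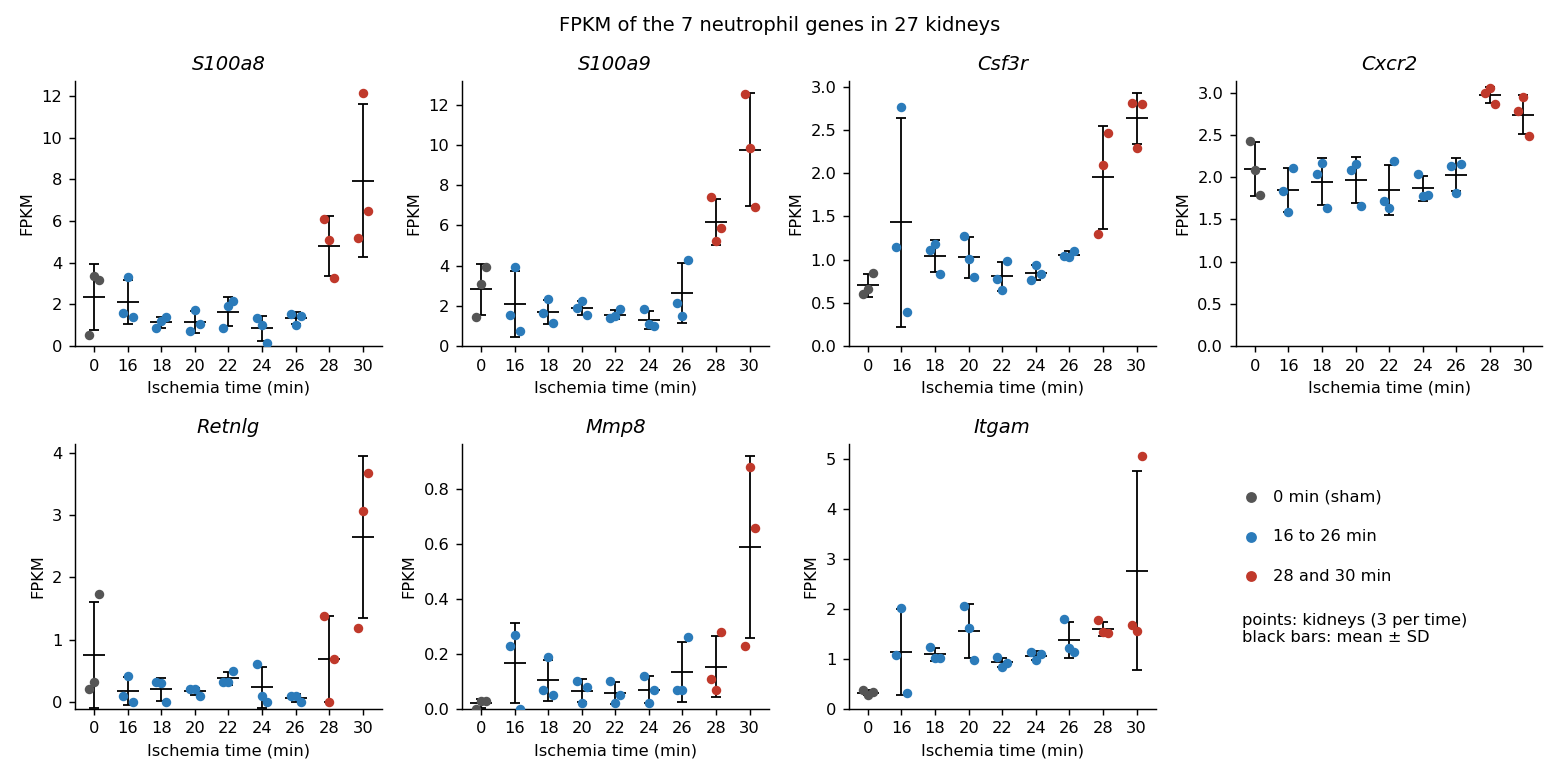
FPKM of the 7 neutrophil genes (1 panel per gene, each with its own linear axis) against ischemia time in min. Points are kidneys, 3 at each time, and black bars are the mean ± SD. At 28 and 30 min S100a9 and Cxcr2 lie above every kidney from 16 to 26 min, and Itgam lies above sham in 17 of the 18 kidneys from 16 to 26 min.

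Csf3r was at 0.60, 0.66 and 0.85 FPKM in sham and ran from 0.39 to 2.76 FPKM at 16 to 26 min, with a median of 1 FPKM. It was at 1.30, 2.10 and 2.46 FPKM at 28 min and at 2.81, 2.29 and 2.80 FPKM at 30 min. The highest value before 28 min was that of 16 min replicate 2, and the others from 16 to 26 min were at most 1.27 FPKM. Cxcr2 was at 2.43, 2.08 and 1.79 FPKM in sham and ran from 1.59 to 2.19 FPKM at 16 to 26 min. It was at 2.99, 3.05 and 2.87 FPKM at 28 min and at 2.78, 2.95 and 2.49 FPKM at 30 min. Its late kidneys lay above all others, in the narrowest range of the 7 genes, 1.92-fold from the lowest to the highest of the 27 kidneys.

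Retnlg was at 0.22, 0.33 and 1.73 FPKM in sham and ran from 0 to 0.62 FPKM at 16 to 26 min, with a median of 0.16. At 28 min it was at 1.38, 0 and 0.70 FPKM, and at 30 min at 1.19, 3.06 and 3.68 FPKM. It was listed at 0 in 5 kidneys, 1 of them at 28 min, and only the 30 min kidneys were all at 1 FPKM or more. Mmp8 was at 0, 0.03 and 0.03 FPKM in sham and ran from 0 to 0.27 FPKM at 16 to 26 min. It was at 0.11, 0.07 and 0.28 FPKM at 28 min and at 0.23, 0.88 and 0.66 FPKM at 30 min. It was highest in 30 min replicates 2 and 3 and did not reach 1 FPKM in any of the 27 kidneys.

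Itgam was at 0.37, 0.27 and 0.33 FPKM in sham. From 16 to 26 min it ran from 0.31 to 2.06 FPKM with a median of 1.08 (mean 1.19 ± 0.433, SD, n = 18). At 28 min it was at 1.77, 1.53 and 1.51 FPKM, and at 30 min at 1.67, 1.56 and 5.07 FPKM. Of the 18 kidneys from 16 to 26 min, 17 lay above the highest sham kidney, and 16 min replicate 3 did not. The last value, from 30 min replicate 3, stood alone, and the other kidneys at 30 min lay within the range of 28 min.

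At 16 min the 3 kidneys stood apart from each other. Replicate 2 was the highest of the 3 for S100a8, S100a9, Csf3r, Retnlg, Mmp8 and Itgam. Replicate 3 was the lowest for the same genes, at 0.31 FPKM of Itgam and 0.39 FPKM of Csf3r, which lie within the sham range of Itgam and below that of Csf3r. Cxcr2 had the opposite order, with 1.59 FPKM in replicate 2 and 2.11 FPKM in replicate 3.

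The first comparison asked whether ischemia of 16 to 26 min changed these genes. For each, limma gave the log2 fold change on the log2(FPKM + 1) scale, which understates the change of low genes, with a p-value adjusted over all genes tested (Benjamini-Hochberg). A gene passed the test with an adjusted p under 0.05, and was a DEG (differentially expressed gene) if its log2 fold change was also beyond 1. Over the 18 kidneys from 16 to 26 min against the 3 sham kidneys, 0 of the 7 genes were DEGs, where 1.8% of all genes were DEGs that were higher and 1.17% DEGs that were lower. By limma 4 of the 7 had an unadjusted p under 0.05, as did 8325 of the 18188 genes tested. Itgam was the gene of the 7 that passed the test upward, with a log2 fold change of 0.62 (SE 0.19, adjusted p = 0.0129), where 17.6% of all genes did so. In FPKM its mean was 3.69 times that of sham, and the exact permutation test gave p = 0.00451 (two-sided, 18 against 3 kidneys, smallest possible p 0.0015). Without sham replicate 2, its adjusted p was 0.0604. Cxcr2 passed downward at -0.24 (SE 0.08, adjusted p = 0.0212), as did 20.6% of all genes, but not without quantile normalization (-0.09, adjusted p = 0.384) or without sham replicate 1 (-0.17, adjusted p = 0.177). With a pseudocount of 0.1 FPKM Itgam was a DEG, at 1.31 (SE 0.30, adjusted p = 0.00202), and Cxcr2 and the other 5 genes were not. Mmp8 did not pass (0.09, SE 0.09, adjusted p = 0.479), though its mean FPKM was 4.97 times that of sham and 14 of the 18 kidneys lay above the highest sham kidney (exact permutation test, two-sided, p = 0.0406). S100a8, S100a9 and Retnlg had log2 fold changes of -0.54 (SE 0.28), -0.56 (SE 0.25) and -0.55 (SE 0.24), which did not pass (adjusted p from 0.0808 to 0.144).

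At single ischemia times, 0 of the 7 genes were DEGs against sham at 16, 18, 20, 22, 24 or 26 min, where 1.28%, 1.97%, 1.55%, 2.09%, 1.97% and 2.16% of all genes were DEGs that were higher. By limma, 1 to 4 of the 7 had an unadjusted p under 0.05 at these times, as did 5796 to 7230 of the 18188 genes tested. Itgam passed the test at 20 min, with 0.85 (SE 0.24, adjusted p = 0.0166), and at 26 min, with 0.76 (SE 0.24, adjusted p = 0.0230), where 10.7% and 14.9% of all genes passed upward. With a pseudocount of 0.1 FPKM it was a DEG at 18, 20, 24 and 26 min, with 1.22 to 1.71. At 18, 22 and 24 min its 3 kidneys lay above all sham kidneys without passing (log2 fold changes of 0.46 to 0.55, adjusted p from 0.104 to 0.171), as in 29%, 29.9% and 29.4% of all genes. Within 16 to 26 min no gene of the 7 passed a test of the slope over ischemia time, with slopes from -0.032 per min for S100a8 to 0.011 per min for Itgam. By limma 0 of them and 1602 of the 18188 genes tested had an unadjusted p under 0.05, and 0.011% of all genes passed that test upward.

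The second comparison set the 6 kidneys of 28 and 30 min against the 18 of 16 to 26 min. All 7 genes passed the test upward, as did 29.6% of all genes, and 2 of the 7 were DEGs, where 1.27% of all genes were DEGs that were higher. S100a9 rose by 1.66 (SE 0.19, adjusted p = 2.77e-07) and S100a8 by 1.61 (SE 0.21, adjusted p = 2.50e-06) on the log2 scale, or 4.28-fold and 4.64-fold in mean FPKM. Of the receptors, Csf3r rose by 0.75 (SE 0.12, adjusted p = 1.89e-05) and Cxcr2 by 0.43 (SE 0.06, adjusted p = 3.52e-06), or 2.22-fold and 1.49-fold in mean FPKM. Retnlg rose by 0.997 (SE 0.18, adjusted p = 0.000102), just short of the fold threshold, and Mmp8 by 0.31 (SE 0.07, adjusted p = 0.000924). Their mean FPKM was 7.94 and 3.74 times that of 16 to 26 min. Itgam rose by 0.53 (SE 0.14, adjusted p = 0.00354), and by 0.34 without 30 min replicate 3 (adjusted p = 0.0177).

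The median log2 fold change of the 7 genes was 0.75, against 0.01 over all genes tested. S100a9 and Cxcr2 had no overlap between the late and the earlier ischemic kidneys, as did 7.54% of all genes in that direction. The exact permutation test gave p = 1.49e-05 for both, the smallest that 6 against 18 kidneys allow, and p from 2.97e-05 to 0.00906 for the other 5 genes (two-sided, unadjusted, 7 tests). With the 28 min kidneys alone, 4 of the 7 passed, and the calprotectin genes were DEGs with either time alone.

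**Figure D2:**
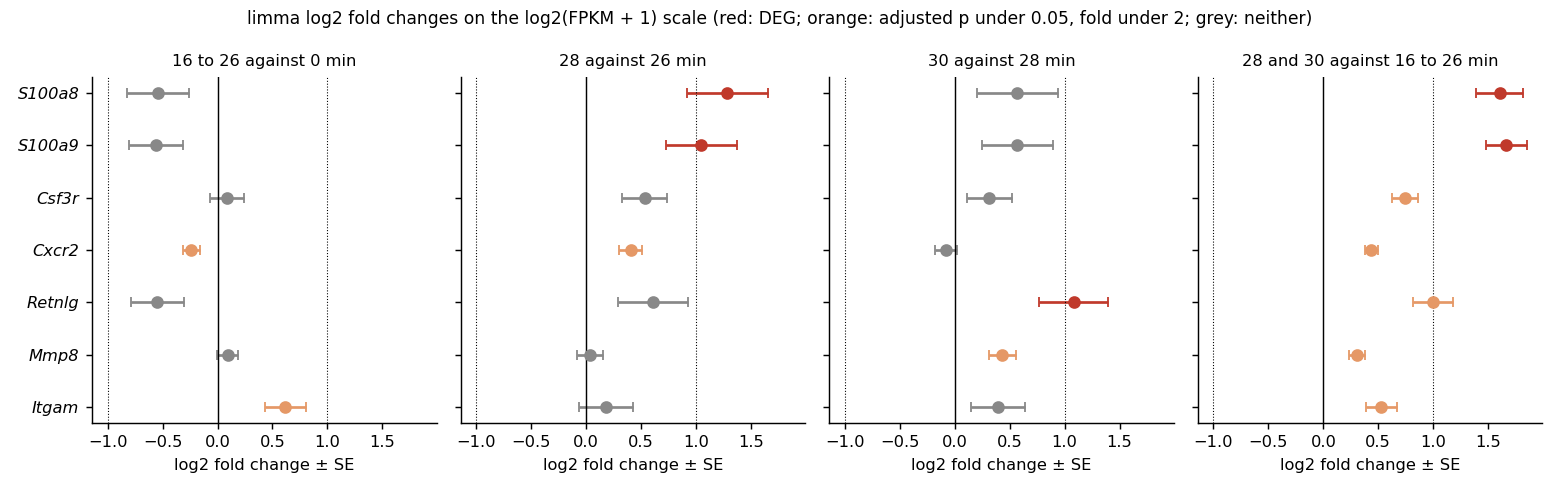
limma log2 fold changes ± SE of the 7 genes on the log2(FPKM + 1) scale in 4 comparisons, 1 panel each, with dotted lines at a fold of 2 in either direction. S100a8 and S100a9 are DEGs (red) in the comparison of 28 with 26 min and of late with earlier ischemia, Retnlg in that of 30 with 28 min, and Itgam passes the test (orange, upward) already from sham to 16 to 26 min.

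Between 26 and 28 min, 3 of the 7 genes passed the test upward, as did 10.8% of all genes. S100a8 rose by 1.29 (SE 0.37, adjusted p = 0.0198) and S100a9 by 1.05 (SE 0.32, adjusted p = 0.0290), and both were DEGs, where 0.44% of all genes were DEGs that were higher. Cxcr2 rose by 0.40 (SE 0.10, adjusted p = 0.00945). With a pseudocount of 0.1 FPKM S100a8 was not called (1.75, adjusted p = 0.0513), and in a fit of these 2 groups alone S100a9 was not. In S100a8, S100a9, Csf3r and Cxcr2 the 3 kidneys at 28 min lay above the 3 at 26 min without overlap, as in 20% of all genes, while Csf3r did not pass the test (0.53, SE 0.20, adjusted p = 0.0745). The exact permutation test gave p = 0.1 for each of these 4 genes, the smallest that 3 against 3 kidneys allow. Itgam and Mmp8 differed by 0.18 (SE 0.24) and 0.03 (SE 0.12) between these times, within the spread between kidneys. The number of DEGs among the 7 fell to 0 without 26 min replicate 2 or without 28 min replicate 1, and to 1 without 26 min replicate 1 or without 28 min replicate 2 or 3.

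Between 28 and 30 min 2 of the 7 genes, Retnlg and Mmp8, passed the test upward, as did 6.47% of all genes. Retnlg rose by 1.08 (SE 0.32, adjusted p = 0.0285) and was the 1 DEG of the 7, where 0.401% of all genes were DEGs that were higher. Mmp8 rose by 0.43 (SE 0.12, adjusted p = 0.0232). The kidneys of the 2 times overlapped in all 7 genes. Retnlg was not called without 28 min replicate 2 or 3 or without 30 min replicate 2 or 3, nor in a fit of these 2 groups alone or with a pseudocount of 0.1 FPKM (2.27, adjusted p = 0.110). S100a8 and S100a9 had log2 fold changes of 0.57 (SE 0.37) and 0.57 (SE 0.32), and Cxcr2 of -0.08 (SE 0.10), none of which passed.

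At 30 min against sham, 3 of the 7 genes were DEGs, S100a8, S100a9 and Itgam, where 5.14% of all genes were DEGs that were higher. S100a8 rose by 1.35 (SE 0.37, adjusted p = 0.00447), S100a9 by 1.39 (SE 0.32, adjusted p = 0.00119) and Itgam by 1.34 (SE 0.24, adjusted p = 0.000106). Csf3r rose by 0.99 (SE 0.20, adjusted p = 0.000358), Retnlg by 0.99 (SE 0.32, adjusted p = 0.0124) and Mmp8 by 0.62 (SE 0.12, adjusted p = 0.000235). Cxcr2 did not pass (0.16, SE 0.10, adjusted p = 0.225), so 6 of the 7 passed upward, as did 26.9% of all genes. Without quantile normalization Cxcr2 differed from sham by 0.27. The exact permutation test gave p = 0.1 for that difference (two-sided), the smallest that 3 against 3 kidneys allow. With a pseudocount of 0.1 FPKM Retnlg did not pass (1.79, SE 0.90, adjusted p = 0.102), and 5 of the 7 did. Without 30 min replicate 3 the change of Itgam was 0.96, under the fold threshold. Without sham replicate 1 that of S100a8 was 0.85, and in a fit of these 2 groups alone its adjusted p was 0.102. The kidneys at 30 min lay above all sham kidneys in 6 of the 7 genes, all but Retnlg, as in 33.3% of all genes.

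At 28 min against sham, 0 of the 7 genes were DEGs, where 4.27% of all genes were DEGs that were higher. By limma 5 of the 7 had an unadjusted p under 0.05, as did 9682 of the 18188 genes tested. S100a9 (0.82, adjusted p = 0.0435), Csf3r (0.68, adjusted p = 0.00919) and Itgam (0.95, adjusted p = 0.00313) passed the test, as did 24.5% of all genes upward. Cxcr2 did not pass (0.24, SE 0.10, adjusted p = 0.0668), and its change was 0.36 (SE 0.09) without quantile normalization. With the replicate block, the replicate numbers of the labels as a term in the fit, 2 of the 7 passed here.

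S100a8 and S100a9 varied together from kidney to kidney. Over the 27 kidneys their log2(FPKM + 1) values had Pearson r 0.87 and Spearman rho 0.79, and after the mean of each ischemia time was taken out r was 0.55. Csf3r and Itgam had r 0.75 over all kidneys and 0.59 within ischemia times. Cxcr2 had r from 0.32 to 0.73 with the other genes over all kidneys but from -0.23 to -0.02 within ischemia times. The points of each pair share their library and scaling, and these correlations are descriptions.

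**Figure D3:**
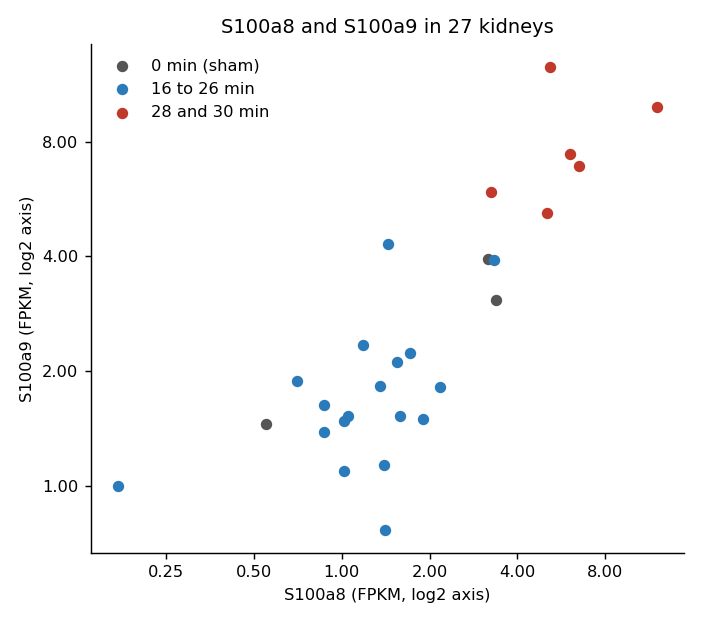
S100a9 against S100a8 in FPKM, both on log2 axes, with 1 point per kidney (27 kidneys) coloured by ischemia time. The 6 late kidneys (28 and 30 min) sit at 3.26 FPKM or more of S100a8 and 5.21 FPKM or more of S100a9, and the sham kidneys lie among those of 16 to 26 min or between them and the late kidneys.

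Other genes of neutrophils gave a mixed picture. Of 20 further neutrophil markers 17 were tested. From 16 to 26 min to the late kidneys 9 of the 17 passed the test upward, where 29.6% of all genes did. Of the 17, 0 were DEGs there, and the median log2 fold change was 0.25. At 30 min against sham 2 of the 17 were DEGs that were higher, where 5.14% of all genes were. Il1r2, the decoy receptor of interleukin-1, was between 0 and 0.06 FPKM in sham, between 0.31 and 0.53 FPKM at 28 min and between 0.88 and 3.62 FPKM at 30 min. It rose by 1.53 against sham (SE 0.20, adjusted p = 1.62e-06) and by 1.002 against 28 min (SE 0.20, adjusted p = 0.00286), and it was a DEG in both. Clec4d, a C-type lectin receptor of myeloid cells, was between 0 and 0.05 FPKM in sham and between 1.43 and 4.56 FPKM at 30 min, and rose by 1.76 (SE 0.26, adjusted p = 9.18e-06). The most abundant of the list, Hdc (histidine decarboxylase, also of mast cells) and Il1b (interleukin-1 beta), rose by 0.65 (adjusted p = 0.00157) and 0.58 (adjusted p = 0.000445) in the late kidneys. Ly6g, the surface marker by which mouse neutrophils are usually stained, was between 0.23 and 0.64 FPKM in sham, between 0.06 and 0.07 FPKM at 28 min and between 0.20 and 0.28 FPKM at 30 min. Its late change was -0.15 (SE 0.07, adjusted p = 0.0824), where all 7 genes had a positive change. At 28 min against sham Ly6g passed the test downward (-0.43, SE 0.12, adjusted p = 0.00684), and at 30 min it did not (-0.24, SE 0.12, adjusted p = 0.109).

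Of 10 granule proteins 8 were tested, with a median log2 fold change of 0.04 in the late kidneys. There 1 of the 8 was a DEG, where 1.27% of all genes were DEGs that were higher. This was Chil3, a chitinase-like protein that macrophages make as well, at 1.74 ± 1.16 FPKM from 16 to 26 min (n = 18) and 7.39 ± 1.89 FPKM at 30 min (n = 3, SD). It rose by 1.39 (SE 0.22, adjusted p = 2.24e-05). Pglyrp1, a peptidoglycan recognition protein, and Mmp9, the gelatinase of late granules, rose by 0.58 (adjusted p = 6.58e-05) and 0.41 (adjusted p = 3.55e-05) without reaching the fold threshold. Primary granule genes are transcribed mainly by immature neutrophils in the marrow. Of these, Ctsg was listed at 0 in all kidneys, Elane was above 0 in 1 kidney and Mpo in 3. Prtn3, proteinase 3, was above 0 in 25 kidneys with a highest value of 0.52 FPKM. Of the 6 NADPH oxidase genes 0 were DEGs by limma in the late kidneys and 1 passed the test downward, with a median of -0.01. Of the 6, 3 had an unadjusted p under 0.05, as did 10271 of the 18188 genes tested. The most abundant of the 6, Cyba, is also a gene of kidney tubules.

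Of 8 further neutrophil receptors, 1 was a DEG that was higher and 1 that was lower from sham to 16 to 26 min. Of all genes, 1.8% and 1.17% were. In the late kidneys 3 of the 8 receptors passed upward without being DEGs, where 29.6% of all genes passed upward. C5ar1, the receptor of complement C5a, was between 0.28 and 0.45 FPKM in sham and between 1.07 and 3.79 FPKM from 16 to 26 min, with no overlap. It rose by 1.11 (SE 0.19, adjusted p = 0.000112), and thus, like Itgam, passed the test already before 28 min. Fcgr4, an Fc gamma receptor, fell by 1.60 (SE 0.16, adjusted p = 7.28e-07), from 3.95 ± 1.65 FPKM in sham (n = 3) to 0.735 ± 0.310 FPKM (n = 18, SD). Itgb2, the beta-2 chain that pairs with CD11b, was at 1.35 ± 0.369 FPKM in sham and 2.45 ± 0.650 FPKM from 16 to 26 min and did not pass (0.38, SE 0.18, adjusted p = 0.0980).

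Of 8 neutrophil attractants and growth factors listed 7 were tested, and from sham to 16 to 26 min 3 passed the test upward, 2 of them as DEGs. Of all genes 17.6% passed upward, and 1.8% were DEGs that were higher. Cxcl1, a ligand of CXCR2, was between 0.83 and 3.60 FPKM in sham and between 6.06 and 89.67 FPKM from 16 to 26 min, and rose by 3.32 (SE 0.44, adjusted p = 1.21e-05). Cxcl2, another ligand, rose by 1.13 (SE 0.21, adjusted p = 0.000295). In the late kidneys against 16 to 26 min, where 1.27% of all genes were DEGs that were higher, the 1 DEG was Ppbp. Ppbp, a CXCR2 ligand stored in platelets, rose by 1.14 (SE 0.15, adjusted p = 1.37e-06). It was between 0.71 and 1.79 FPKM at 28 min and between 3.29 and 7.38 FPKM at 30 min. Csf3, the ligand of Csf3r, rose by 0.42 (SE 0.04, adjusted p = 1.71e-08), from 0.0694 ± 0.0554 FPKM at 16 to 26 min (n = 18) to 0.380 ± 0.114 at 28 min and 0.453 ± 0.0321 FPKM at 30 min (n = 3, SD).

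**Figure D4:**
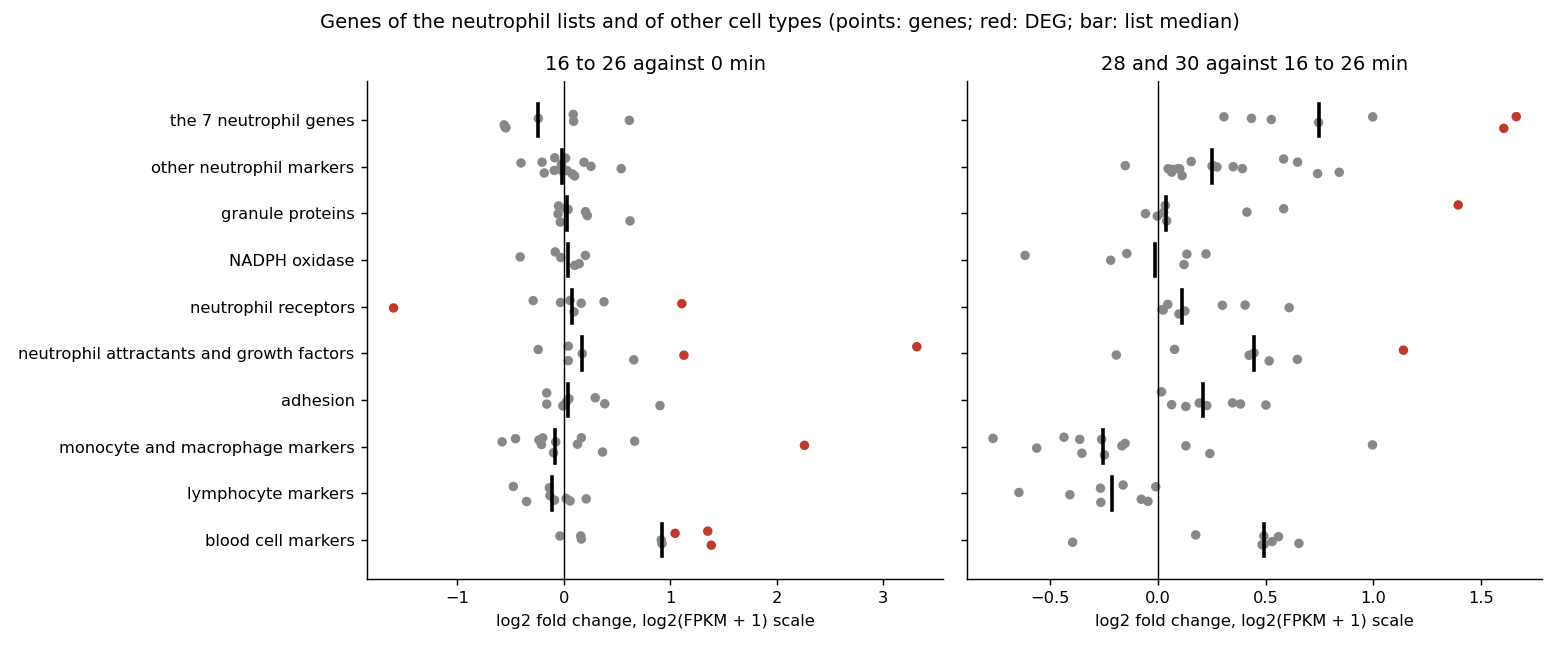
limma log2 fold changes on the log2(FPKM + 1) scale of the 7 neutrophil genes and of 9 other gene lists, with points for genes (red for DEGs) and a bar for the median of each list. The median of the 7 genes is -0.24 from sham to 16 to 26 min (left) and 0.75 from there to 28 and 30 min (right), where the median of the monocyte and macrophage markers is -0.25 and that of the blood cell markers 0.49.

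Markers of other cells also differed between ischemia times. Of 8 blood cell markers, 6 were DEGs that were higher at 30 min against sham, where 5.14% of all genes were. These were Hbb-bs, Hbb-bt, Hba-a1, Hba-a2, Alas2 and Pf4, and the median log2 fold change of the 8 was 2.04. At 18 and 22 min against sham 5 of the 8 were DEGs that were higher, with medians of 1.48 and 1.28. There 1.97% and 2.09% of all genes were DEGs that were higher, and 0 of the 7 neutrophil genes were DEGs. The summed level of this list was between 125 and 648 FPKM in sham, between 359 and 974 FPKM at 28 min and between 806 and 1483 FPKM at 30 min. From 16 to 26 min to the late kidneys 3 of the 8 passed upward, where 29.6% of all genes did, and 1 downward, with 0 DEGs. The beta-globin gene Hbb-bs was at 172 ± 123 FPKM at 28 min and 175 ± 70.4 FPKM from 16 to 26 min, while the calprotectin genes rose between these times. Within 16 to 26 min the mean of Hbb-bs was 273 FPKM at 18 min, 219 FPKM at 22 min and from 128 to 168 FPKM at the other times. Over the 27 kidneys r with Hbb-bs was 0.08 for S100a8 and 0.47 for Mmp8, the ends of the range for the 7 genes. The part of blood in the 30 min values was not tested.

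Of 12 monocyte and macrophage markers, 1 was a DEG from sham to 16 to 26 min, where 1.8% of all genes were DEGs that were higher. The median log2 fold change was -0.09, with 5 of the 12 positive. The test was passed upward by 2 and downward by 1, Csf1r (-0.58, SE 0.14, adjusted p = 0.00276), where 17.6% and 20.6% of all genes passed. The DEG was Cd68, a lysosomal protein of macrophages, between 3.04 and 3.61 FPKM in sham and between 8.81 and 30.33 FPKM from 16 to 26 min, which rose by 2.26 (SE 0.20, adjusted p = 1.56e-07). Over the 27 kidneys r between Cd68 and the 7 genes ran from 0.05 for Retnlg to 0.74 for Itgam. Itgam also had r 0.73 with Havcr1, an injury marker of tubules, and 0.82 with Lcn2, which injured tubules also make. In the late kidneys 1 of the 12 passed upward, where 29.6% of all genes did, and 7 downward, with 0 DEGs. The share of all genes that passed downward is not given here. In either direction 8 of the 12, and 10271 of the 18188 genes tested, had an unadjusted p under 0.05 by limma. At 30 min against sham Cd68 and Cd14 were higher and Csf1r and Ly6c2 lower. The median log2 fold change of the list at 30 min against sham was -0.28, with 3 of the 12 positive. The summed level of the list was between 75.2 and 89.1 FPKM in sham and between 83.4 and 142 FPKM at 30 min. Within that sum the mean of Cd68 was 3.38 FPKM in sham and 28.2 FPKM at 30 min, and that of Csf1r 15.8 and 6.69 FPKM. The part of macrophages in the values of Itgam was not tested. Of 8 lymphocyte markers 5 passed downward in the late kidneys and 0 upward, with 0 DEGs, and 6 had an unadjusted p under 0.05 by limma. Their summed level was between 1.79 and 5.59 FPKM in sham and between 0.580 and 1.25 FPKM at 30 min.

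Of 9 other S100 genes, which encode small calcium-binding proteins, 3 were DEGs from sham to 16 to 26 min, S100a4, S100a6 and S100a11. All 3 were higher, where 1.8% of all genes were DEGs that were higher. At 30 min against sham 5 of the 9 were DEGs that were higher, where 5.14% of all genes were, and 1, S100g, was lower. S100a6 was at 14.6 ± 8.83 FPKM in sham (n = 3), 152 ± 47.3 FPKM from 16 to 26 min (n = 18) and 394 ± 101 FPKM at 30 min (n = 3, SD), against at most 12.53 FPKM for S100a9. Over the 27 kidneys 8 of the 9 had a higher mean than S100a9, up to 1070 FPKM for S100a11, and S100b a lower one (0.0622 FPKM). S100a6 thus changed over times at which the calprotectin genes did not pass the test.

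Of 12341 genes with a mean of at least 1 FPKM, the 10 whose levels over the 27 kidneys were most like the mean standardized level of the 7 genes were Tmbim1 (Pearson r 0.96), Pxdc1, Ssh1, Rnf180, Cdc42ep4, Camk2d, Rab12, Chmp2b, Smox and Srgap1 (r 0.94). None of the 10 is in the gene lists used here. Tmbim1 was at 13.1 FPKM in sham, 14.97 FPKM from 16 to 26 min, 22.2 FPKM at 28 min and 32.6 FPKM at 30 min. The 10 were chosen by their likeness over these same kidneys, so a highest mean at 30 min follows from the choice. After the mean of each ischemia time was taken out, r ran from 0.61 for Rnf180 to 0.89 for Tmbim1.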

How the data were processed

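The authors deposited 1 table of FPKM per gene symbol and kidney, rounded to 2 decimals (the paper calls the unit RPKM). The submitters' processing notes name Bowtie2, RSEM, DESeq2 and GRCm38.p6, and how each was used is not given in the sources used here. The sum over genes ran from 512453 to 554036 FPKM per kidney. Read counts were not used, so depth is unknown and precision was judged from the replicates, which are different mice.

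Values were taken as log2(FPKM + 1), filtered to genes above 0 FPKM in at least 3 kidneys, quantile normalized and fitted in limma 3.58.1 (R 4.3.3) over all 27 kidneys, with each ischemia time as its own mean. p-values were adjusted by Benjamini-Hochberg over 18188 genes, and a DEG needed an adjusted p under 0.05 together with a log2 fold change beyond 1 in either direction. The comparisons were each time with 0 min, 28 with 26 min, 30 with 28 min, the pooled groups and the slope. Single values were compared by exact permutation tests on log2(FPKM + 1) without quantile normalization in scipy 1.17.1 (Python 3.11.15). The members and gene lists were chosen with earlier results of these data known. Named genes were the 7 members, the most abundant and called genes of each list, and the 10 genes most like the members. Replicate numbers did not pair the kidneys. Over 108 pairs with the same number, correlations of deviations from the group means had a median of -0.01, and 25 were above 0.1. Alternatives were no quantile normalization, a pseudocount of 0.1 FPKM, a constant sum per kidney (TPM), other filters, only the groups compared, a trend in eBayes, a replicate block and each kidney left out in turn. After seeing the data, 28 or 30 min alone and leaving out the 16 min kidneys were added. Serum creatinine and histology were not analysed here.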

Additional observations from a re-analysis of the deposited data

How the results depend on the processing

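Depth is not known, so no counting error can be given, and Retnlg and Mmp8 reached 1 FPKM in 5 and 0 of the 27 kidneys. The pseudocount moved most counts of DEGs among them. With 0.1 FPKM in place of 1, there was 1 DEG at 18, 20, 24 and 26 min against 0 min and for 16 to 26 against 0 min (Itgam), 2 at 28 against 0 min, 5 at 30 against 0 min, 5 for 28 and 30 against 16 to 26 min, 1 at 28 against 26 min (S100a9) and 0 at 30 against 28 min. With a constant sum per kidney (TPM) there was 1 at 20 and at 26 min, 2 at 28 min and 5 at 30 min against 0 min, and without quantile normalization 5 at 30 min. In a fit of only the groups compared there was 1 at 28 against 26 min and 0 at 30 against 28 min, with fewer kidneys to estimate the spread. The cause of the other moves was not tested. Filters, a trend in eBayes and the replicate block moved no count of DEGs by over 1.5 times (0, 2, 1, 3 and 2 DEGs with the replicate block for 16 to 26 against 0, 28 against 26, 30 against 28, 30 against 0 min and late against earlier kidneys). Mmp8 gives no value with a filter of at least 1 FPKM.

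With each kidney left out in turn, DEGs among the 7 genes numbered 2 to 3 for 28 and 30 against 16 to 26 min, 0 to 1 for 16 to 26 against 0 min, 0 to 2 for 28 against 26 min, 0 to 1 for 30 against 28 min and 2 to 5 for 30 against 0 min. Against 0 min they numbered 0 to 1 at 18, 20, 26 and 28 min and 0 to 2 at 24 min. Sham replicate 1 gave the higher number at 18, 24 and 26 min.

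Changes that turned sign were small and uncalled. Csf3r was at 0.0834 and 0.118 at 22 and 24 min against 0 min without quantile normalization and at 0.109 and 0.161 with TPM, S100a8 at 0.0114 at 16 min with TPM, and the slope of Retnlg at 0.0020 with the filter of 1 FPKM. Over the kidneys left out in turn, against 0 min, S100a8 ran from -0.647 to 0.131 at 16 min, Csf3r from -0.0826 to 0.579 at 16 min, from -0.122 to 0.0123 at 22 min and from -0.0792 to 0.0327 at 24 min, Retnlg from -0.589 to 0.0437 at 22 min and from -0.391 to 0.298 at 28 min, and S100a9 from -0.542 to 0.0105 at 26 min. Mmp8 ran from -0.0450 to 0.120 for 28 against 26 min. The slopes ran from -0.0309 to 0.0073 for Csf3r, -0.0094 to 0.0022 for Mmp8, -0.0112 to 0.0032 for Retnlg, -0.0063 to 0.0252 for Itgam and -0.0172 to 0.0345 for S100a9.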

Other observations

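Lcn2 (lipocalin 2), a protein of neutrophil granules that injured tubules also make, was at 28.2 ± 30.7 FPKM in sham (n = 3), 246 ± 122 FPKM from 16 to 26 min (n = 18), 839 ± 86.7 FPKM at 28 min and 2424 ± 1377 FPKM at 30 min (n = 3, SD). Its level was far above that of the 7 neutrophil genes in all groups. Over the 27 kidneys r between Lcn2 and the 7 genes ran from 0.44 for Cxcr2 to 0.82 for Itgam, as a description.

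Of 8 adhesion genes 4 passed the test upward at 30 min against sham and 0 from sham to 16 to 26 min, with 0 DEGs by limma in either comparison. Of all genes, 26.9% and 17.6% passed upward in these comparisons. From sham to 16 to 26 min 2 of the 8 had an unadjusted p under 0.05, as did 8325 of the 18188 genes tested. Icam1, the endothelial ligand of the beta-2 integrins, was at 12.8 ± 4.84 FPKM in sham (n = 3), 16.9 ± 4.73 FPKM from 16 to 26 min (n = 18) and 21.9 ± 4.51 FPKM at 30 min (n = 3, SD). Among the 4 genes of the CD11 and beta-2 integrin list, Itgax (CD11c) was between 0.39 and 0.76 FPKM in sham and between 0.19 and 0.65 FPKM at 30 min, where Itgam was between 1.56 and 5.07 FPKM. Retn (resistin), listed with Retnlg, reached 16.54 FPKM in 1 kidney from 16 to 26 min and was between 0.11 and 1.15 FPKM at 30 min. Retnla was at or near 0 in all kidneys.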
